A study of Homo sapiens with 8 samples.

Results

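The genes described here are 10 genes that let a cell notice nucleic acid in its endosomes or DNA in its cytosol, together with SLC15A3, a transporter of the same endolysosomal membranes. They were chosen by name: SLC15A3, SLC15A4, TLR3, TICAM1, MYD88, UNC93B1, CGAS, STING1, IFI16 and TREX1, with every probe that the platform annotation pairs with those symbols. That gave 14 of the 47312 probes on the array, and 8 of the 10 genes were among the 17297 genes or unnamed probes compared. The set was proposed with the siHBO1 to siCTRL comparison in view, above all the difference of SLC15A3, so the differences of these genes are described without a test of their own.

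RNA came from OVCAR-3, an established human ovarian carcinoma cell line, 48 h after transfection with siRNA against HBO1 (siHBO1, 4 arrays) or with scramble siRNA (siCTRL, 4 arrays), so both groups received siRNA. HBO1 is the acetyltransferase encoded by KAT7. Whether the 4 replicates of a group were separate cultures is not stated, and the spread between them may therefore be technical. Biotin-labelled cRNA was read on single-colour Illumina BeadChip arrays.

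Endosomal Toll-like receptors meet nucleic acid after it has been taken up, and cytosolic sensors meet DNA that lies outside the nucleus. TLR3 binds double-stranded RNA and signals through the adaptor TICAM1 (TRIF), whereas the other nucleic acid receptors of the endosome signal through MYD88, and UNC93B1 carries these receptors from the endoplasmic reticulum to the endosome. In the cytosol CGAS makes a cyclic dinucleotide when it binds DNA, STING1 is the receptor for that dinucleotide, IFI16 is a further DNA-binding sensor, and the exonuclease TREX1 removes cytosolic DNA. SLC15A3 and SLC15A4 are proton-coupled histidine and peptide transporters of endolysosomes. All of these routes can end in production of type I interferon, and several of the sensors are themselves interferon-inducible.

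The promoters of 6 of the 10 genes were read from RefSeq windows on GRCh38.p14, 7 windows in all, each covering 250 bases before to 50 after a gene start. Windows for SLC15A3, UNC93B1, CGAS and STING1 were not analysed here. Each window was searched on both strands for the core of the interferon-stimulated response element, written as GAAA, any 2 bases and GAAA, and for TTCNNNGAA, the gamma-activated site bound by STAT dimers, which reads the same on both strands. TLR3 and MYD88 were the members whose window held a match, and each held both motifs. Their windows are shown for that reason. The capitals mark the matches.

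TLR3 (chr4:186068906-186069205, + strand): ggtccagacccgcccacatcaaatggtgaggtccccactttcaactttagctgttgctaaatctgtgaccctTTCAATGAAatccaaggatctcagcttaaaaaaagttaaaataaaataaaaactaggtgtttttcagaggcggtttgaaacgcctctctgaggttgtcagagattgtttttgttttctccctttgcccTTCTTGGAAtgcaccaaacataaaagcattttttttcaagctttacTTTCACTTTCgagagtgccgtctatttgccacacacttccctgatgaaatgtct
MYD88 (chr3:38138411-38138710, + strand): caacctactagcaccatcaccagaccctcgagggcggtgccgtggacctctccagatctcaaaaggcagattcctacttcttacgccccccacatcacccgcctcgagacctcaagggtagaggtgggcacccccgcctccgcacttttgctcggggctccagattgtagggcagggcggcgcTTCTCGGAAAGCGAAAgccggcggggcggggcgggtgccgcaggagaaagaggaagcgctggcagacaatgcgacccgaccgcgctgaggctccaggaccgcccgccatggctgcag

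Counted from the first base of the window, the TLR3 response element core lay at positions 247 to 256 on the minus strand and its gamma-activated sites at 73 to 81 and 201 to 209. In MYD88 the gamma-activated site at 184 to 192 overlapped the response element core at 190 to 199 on the plus strand, so they stand as a single run of capitals. Of 35116 windows in the table, 3.57% held the response element core, 7.66% the gamma-activated site and 0.439% both. The windows of SLC15A4, TICAM1 and TREX1 and both windows of IFI16 held neither string. A match is a description of the sequence and was not tested as a binding site.

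The arrays had median intensities between 224 and 324, and 43.3% to 46.7% of probes were detected at a detection p under 0.05. KAT7, the targeted gene, had normalized log2 levels of 6.66, 6.86, 7.04 and 7.43 on siHBO1 replicates 1 to 4, against 7.67, 7.97, 7.93 and 7.35 on siCTRL replicates 1 to 4. The array labelled siHBO1 replicate 4 therefore lay within the siCTRL range for KAT7, and the differences of the members, IRF7 and LAMP3 are also given without it. All 12 markers of ovarian carcinoma epithelium (PAX8, MUC16, EPCAM and others) were detected on at least 4 arrays. Of 11 leukocyte markers with a probe, CD14 and CD68 were detected on all 8 arrays and the others on at most 2; PTPRC, LYZ, CSF1R and TYROBP were detected on none. The summed linear level of those 11 markers ran from 2084 to 6188 on siHBO1 arrays and from 2045 to 6190 on siCTRL arrays. CD68 and CD14 were the brightest of the 11 in both groups, so the sum is no measure of leukocyte content. Of 8 fibroblast and endothelial markers, COL1A1 and VWF were detected on all 8 arrays and COL1A2 on 3 arrays of each group. DCN was detected on 1 array of each group and the others on none.

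**Figure D1:**
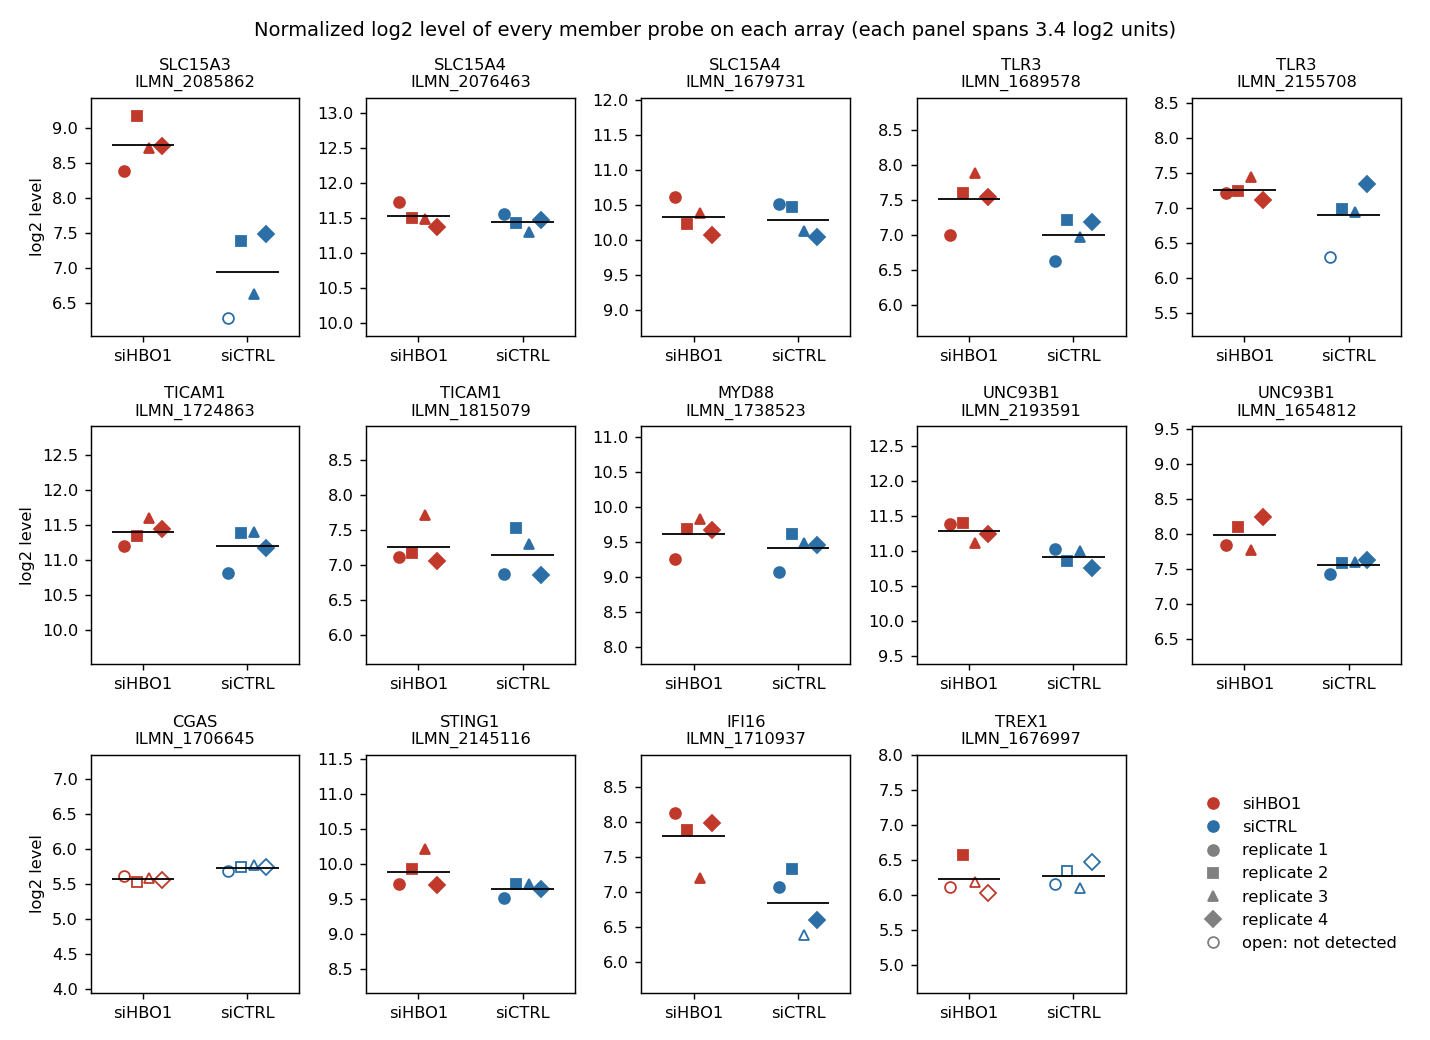
Normalized log2 level (y axis) of each of the 14 member probes on the siHBO1 arrays (left) and the siCTRL arrays (right), with the replicate number as the marker shape and the group mean as a line. Open markers were not detected at p under 0.05. SLC15A3 and both UNC93B1 probes show siHBO1 arrays wholly above siCTRL arrays, and CGAS was detected on none.

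SLC15A3 differed most among these genes. Its probe, ILMN_2085862, had deposited intensities of 489, 785, 678 and 745 on siHBO1 replicates 1 to 4, against 223, 430, 348 and 444 on siCTRL replicates 1 to 4. After normalization the log2 levels were 8.39, 9.17, 8.72 and 8.74 on the siHBO1 arrays, against 6.29, 7.39, 6.63 and 7.49 on the siCTRL arrays. Every siHBO1 array stood above every siCTRL array, with 0.90 between the lowest siHBO1 and the highest siCTRL level. The difference was 1.81 on the log2 scale (SE 0.28, n = 4 each), or 3.50-fold.

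The probe was detected on all 4 siHBO1 arrays (detection p 0.0013 on each) and on 3 of the 4 siCTRL arrays. The array that missed was siCTRL replicate 1, at a detection p of 0.100, and siCTRL replicate 3 was near the limit at 0.0364. The level in control cells was thus close to background, which makes the size of the difference uncertain. Without background correction it was 0.94, and it was 1.62 in the authors' processed values. In bulk RNA, fewer cells that express a gene and less of its RNA per cell cannot be told apart.

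The 4 numbered pairs differed by 2.10, 1.78, 2.09 and 1.26. The last of these contains the array labelled siHBO1 replicate 4, on which KAT7 was not lower, and leaving that array out gave a difference of 1.81. Leaving out both replicate 1 arrays, whose levels were the lowest in each group, gave 1.71. The siHBO1 arrays averaged 8.76 ± 0.32 and the siCTRL arrays 6.95 ± 0.58 (SD, n = 4 each), so the control arrays were the more spread of the groups.

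SLC15A4, the paralog that anchors the adaptor TASL on endolysosomes, had groups that overlapped. Its brighter probe, ILMN_2076463, stood at 11.72, 11.49, 11.49 and 11.37 on siHBO1 replicates 1 to 4, against 11.55, 11.43, 11.30 and 11.47 on siCTRL replicates 1 to 4. The difference was 0.08 (SE 0.11, 95% confidence interval -0.17 to 0.33). The second probe, ILMN_1679731, gave 0.04 (95% confidence interval -0.32 to 0.39). Both probes were detected on all 8 arrays, and neither was higher in all 4 pairs.

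**Figure D2:**
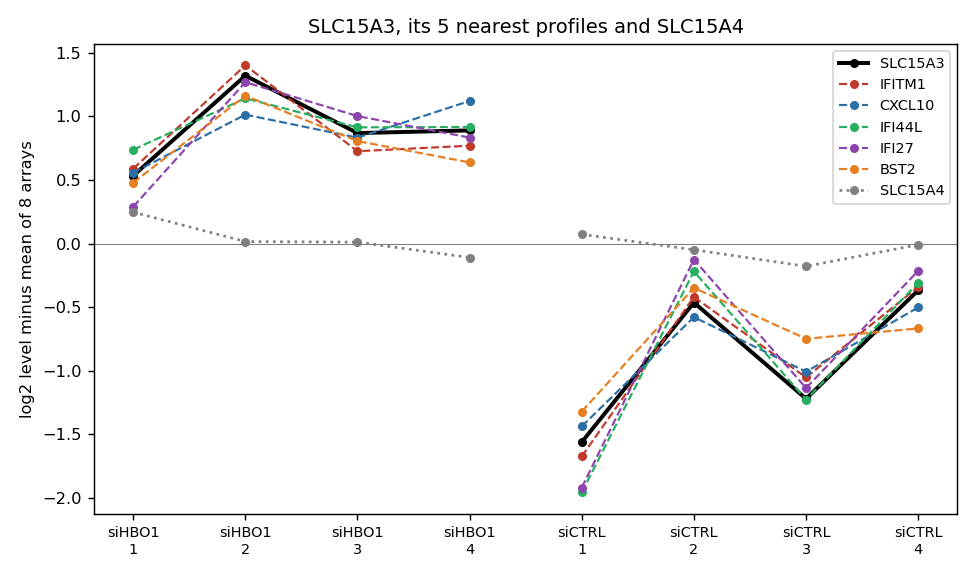
Log2 level minus the gene's mean over the 8 arrays (y axis) for SLC15A3, the 5 genes with the nearest profile and SLC15A4, on the siHBO1 arrays (left) and the siCTRL arrays (right); lines join the arrays of a group and carry no order. SLC15A3 and its nearest profiles were lowest on siCTRL replicate 1, and SLC15A4 stayed near its mean.

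The profile of SLC15A3 over the 8 arrays was nearest to those of known interferon-stimulated genes. Likeness was measured as the root mean square difference of log2 levels after each gene was centred on its own mean, over 12221 other genes with a symbol. IFITM1, a membrane protein that hinders virus entry, was nearest at 0.11, followed by the chemokine CXCL10 at 0.17, IFI44L at 0.19, IFI27 at 0.21 and BST2, which tethers budding virions, at 0.24. The median over all ranked genes was 1.00. This measure includes the difference between the groups, for which SLC15A3 was chosen. The 5 genes had differences of 1.54 (BST2) to 1.86 (IFI44L), near the 1.81 of SLC15A3. The ranking therefore partly restates the size of the difference and is no separate evidence of shared regulation, which was not tested. SLC15A3 and these 5 genes were each lowest on siCTRL replicate 1, a trait not particular to them. By their brightest probes TLR3 (6.62), TICAM1 (10.81), MYD88 (9.07) and STING1 (9.50) were also lowest on that array. SLC15A4, UNC93B1 and IFI16 were lowest on other arrays. Of the other members the nearest was IFI16, ranked 60 at 0.69, then TLR3, ranked 65 at 0.71, while SLC15A4 ranked 4171.

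TLR3, the receptor for double-stranded RNA, was measured by 2 probes near background. ILMN_1689578 stood at 7.00, 7.59, 7.88 and 7.54 on siHBO1 replicates 1 to 4, against 6.62, 7.21, 6.97 and 7.18 on siCTRL replicates 1 to 4. Each siHBO1 array was above the control of its own number, but siHBO1 replicate 1 lay below siCTRL replicates 2 and 4, so the groups overlapped. The difference was 0.51 (SE 0.20), and 0.22 without background correction. The dimmer probe, ILMN_2155708, was detected on 3 of the 4 siCTRL arrays and gave 0.36 (SE 0.20), with pair differences of 0.92, 0.24, 0.50 and -0.24. The probes thus had the same sign on average but not in the pair with the array labelled siHBO1 replicate 4.

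UNC93B1, the chaperone of the endosomal receptors, was the other of the 8 members compared whose groups lay fully apart with siHBO1 higher, and on both of its probes. ILMN_2193591 stood at 11.38, 11.39, 11.10 and 11.24 on siHBO1 replicates 1 to 4, against 11.02, 10.85, 10.99 and 10.75 on siCTRL replicates 1 to 4. ILMN_1654812 stood at 7.85, 8.10, 7.77 and 8.25 on siHBO1 replicates 1 to 4, against 7.42, 7.58, 7.60 and 7.62 on siCTRL replicates 1 to 4. The gaps between the groups were narrow, 0.08 and 0.15. The differences were 0.38 (SE 0.11, 1.30-fold) and 0.43 (SE 0.13, 1.35-fold), and the smallest pair difference on each probe was in pair 3, at 0.12 and 0.17. Without the array labelled siHBO1 replicate 4 the brighter probe gave 0.39, and over 20 alternative settings the UNC93B1 difference ran from 0.33 to 0.44.

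Both adaptors were detected on all 8 arrays, with groups that overlapped. MYD88 stood at 9.25, 9.68, 9.82 and 9.67 on siHBO1 replicates 1 to 4, against 9.07, 9.61, 9.48 and 9.46 on siCTRL replicates 1 to 4. All 4 pairs were positive, and the difference was 0.20 (SE 0.16, 95% confidence interval -0.16 to 0.56), an interval of -0.01 to 0.41 once the fit took replicate numbers as blocks. TICAM1 stood at 11.19, 11.33, 11.60 and 11.44 on siHBO1 replicates 1 to 4, against 10.81, 11.38, 11.40 and 11.17 on siCTRL replicates 1 to 4. Pair 2 ran the other way at -0.04, and the difference was 0.20 (SE 0.15, 95% confidence interval -0.15 to 0.55, or -0.03 to 0.44 with the block). The dimmer TICAM1 probe gave 0.12 (SE 0.20).

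Among the DNA sensors IFI16 differed most. Its probe, ILMN_1710937, stood at 8.13, 7.89, 7.20 and 7.99 on siHBO1 replicates 1 to 4, against 7.07, 7.33, 6.39 and 6.60 on siCTRL replicates 1 to 4. All 4 siHBO1 arrays detected it and 3 of the 4 siCTRL arrays did, with siCTRL replicate 3 at a detection p of 0.0948. The groups overlapped in 1 place only, siHBO1 replicate 3 lying 0.13 below siCTRL replicate 2. The difference was 0.96 (SE 0.25, 1.94-fold), with pair differences of 1.07, 0.56, 0.81 and 1.39. The largest pair was the one with the array labelled siHBO1 replicate 4, and without that array the difference was 0.90. Without background correction it was 0.44.

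STING1 stood at 9.71, 9.93, 10.21 and 9.69 on siHBO1 replicates 1 to 4, against 9.50, 9.71, 9.71 and 9.64 on siCTRL replicates 1 to 4. The difference was 0.24 (SE 0.13, 95% confidence interval -0.06 to 0.54, which with the block was 0.01 to 0.48 and no longer spanned 0), and the groups overlapped only narrowly, the lowest siHBO1 level lying under the highest siCTRL level. All 4 pairs were positive, the largest being pair 3 at 0.50 and the smallest pair 4 at 0.05.

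CGAS, which makes the ligand of STING1, was not detected on any of the 8 arrays. Its single probe had detection p-values of 0.894 to 0.982 on the siHBO1 arrays and of 0.632 to 0.775 on the siCTRL arrays, so its levels are background and no fold is given. TREX1 was detected on siHBO1 replicate 2 alone, at a detection p of 0.0429. Its deposited intensities were 226, 305, 282 and 281 on siHBO1 replicates 1 to 4, against 213, 308, 286 and 327 on siCTRL replicates 1 to 4, which overlap. A single probe not detected does not show that a transcript is absent.

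**Figure D3:**
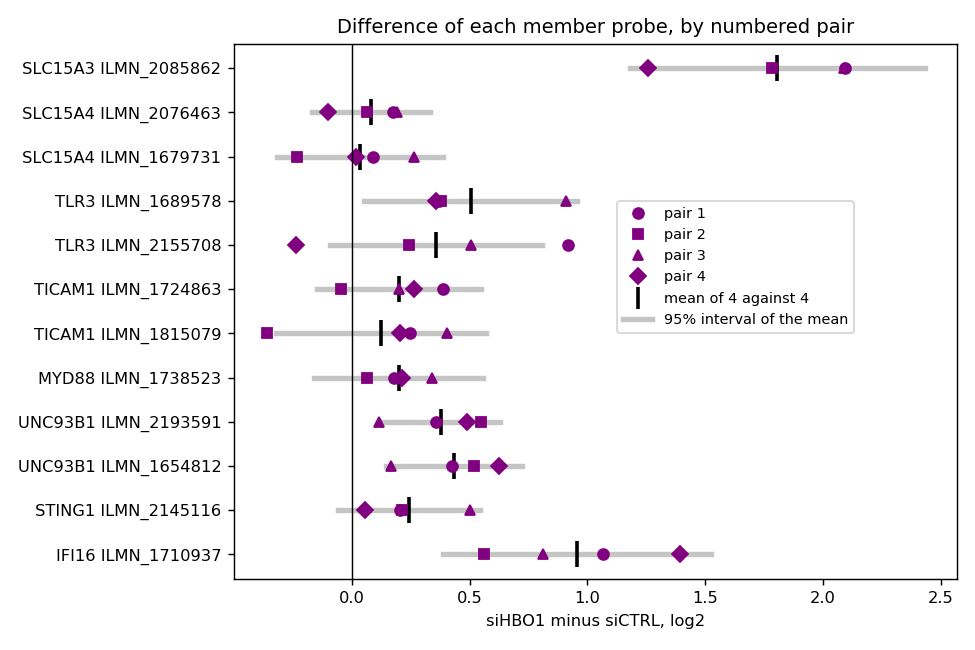
Difference in log2 level, siHBO1 minus siCTRL (x axis), for the 12 member probes kept for the comparison: markers give the 4 numbered pairs, the tick the mean difference, and the grey bar its 95% confidence interval. SLC15A3 lies furthest right at 1.81, followed by IFI16 at 0.96. The intervals of both SLC15A4 probes, both TICAM1 probes, MYD88, STING1 and the dimmer TLR3 probe span 0, and those of the other probes do not.

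All 8 members compared had a positive difference, spanning 0.08 to 1.81 around a median of 0.31. Without the array labelled siHBO1 replicate 4 the differences were 1.81 for SLC15A3, 0.13 for SLC15A4, 0.49 for TLR3, 0.39 for UNC93B1, 0.18 for MYD88, 0.19 for TICAM1, 0.90 for IFI16 and 0.31 for STING1. Over all 17297 genes the median was -0.01 and 47.8% were positive. Of the 8 members 6 were higher in all 4 pairs, which held for 6.96% of all genes, and 2 had groups fully apart with siHBO1 higher, which held for 1.35% of all genes (2.82% in either direction). The pair count takes the brightest kept probe of a gene, and pairing was clear for replicate 1 only. By the dimmer probes, UNC93B1 was also higher in all 4 pairs, but TLR3 was lower in pair 4, at -0.24. In limma's comparison over all genes, 0 of the 8 passed an adjusted p of 0.05 (background 0.0347%, or 0.0289% higher in siHBO1; unadjusted p under 0.05 for 655 genes), and with the replicate number as a block 1 did, SLC15A3 (background 0.335%, or 0.272% higher in siHBO1). These shares come from the comparison that led to the choice of the genes, and nothing is read from them.

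In the wider pathways 1 gene passed as higher in the main fit, a call that did not hold in every alternative. Of 109 listed genes, 82 were tested, and IRF7 passed (limma, Benjamini-Hochberg over all genes, of which 0.0347% passed in either direction). With the replicate block LAMP3 passed as well, in a fit where 0.335% of all genes passed in either direction. None of the 82 passed as lower in limma, with or without the block, and IRF7 and LAMP3 were the 2 with an unadjusted p under 0.05 without it. The median difference was -0.01 over the 82 and -0.01 over all genes.

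IRF7, the transcription factor that endosomal receptors activate to induce interferon, stood at 12.48, 12.60, 12.63 and 12.66 on siHBO1 replicates 1 to 4, against 11.45, 11.78, 11.54 and 11.72 on siCTRL replicates 1 to 4. It rose by 0.97 (SE 0.11, 1.96-fold, limma adjusted p = 0.0442), higher in 4 of 4 pairs, and its other detected probe gave 1.23. The call ended when any of siHBO1 replicates 2 to 4 or any siCTRL array was left out, at adjusted p between 0.0538 and 0.274, and it also ended under median scaling, without normalization, with the authors' values, with the mean of its probes and without both replicate 4 arrays (adjusted p = 0.455). Without the array labelled siHBO1 replicate 4 the difference was 0.95 (adjusted p = 0.211). Over all 20 alternatives the difference stayed between 0.91 and 1.10, while the adjusted p ran from 0.0168 to 1.00. The other 19 tested genes of Toll-like receptor adaptor signalling did not pass, and their kinases TBK1 and IKBKE stood at -0.04 and -0.03 and the transcription factor IRF3 at 0.06. IRAK4 and RIPK1 had no probe under their symbols, and IRF5 was detected on no array.

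LAMP3, a lysosome-associated membrane protein, stood at 11.69, 11.77, 11.43 and 11.49 on siHBO1 replicates 1 to 4, against 10.36, 10.72, 10.19 and 10.91 on siCTRL replicates 1 to 4. The groups lay apart, and the difference was 1.05 (SE 0.17, 2.07-fold, limma adjusted p = 0.113, and adjusted p = 0.0384 with the block). Over 20 alternatives the adjusted p ran from 0.0384 to 0.827, and without the array labelled siHBO1 replicate 4 the difference was 1.08 (adjusted p = 0.312). Its second probe gave 0.83. The other 9 tested genes of the lysosomal membrane list passed in neither fit, the nearest being the amino acid sensor SLC38A9 at 0.21, with LAMP1 at -0.02 and LAMP2 at 0.04. The peptide transporter SLC15A1, kin of SLC15A3, was detected on no array, and SLC15A2 on 1.

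The endosomal receptors that use MYD88 were not measurable here. TLR7, TLR8 and TLR9 were detected on no array by any of their 5 probes, and neither was cathepsin S (CTSS), a protease that processes such receptors. Of the 12 tested genes of receptor handling none passed, with the receptor cochaperone CNPY3 at -0.26 and the protease LGMN at 0.19 (adjusted p = 1.00 each). Among 32 tested DNA sensors and STING regulators none passed, with ZCCHC3, a cofactor of CGAS, at 0.33 and ENPP1, which degrades the CGAS product, at 0.20 (adjusted p = 1.00 each). Among 9 tested nucleases and editing enzymes none passed, with ADAR at 0.20 and RNASEH1 at -0.22 (adjusted p = 1.00 each), and SAMHD1 was detected on no array.

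**Figure D4:**
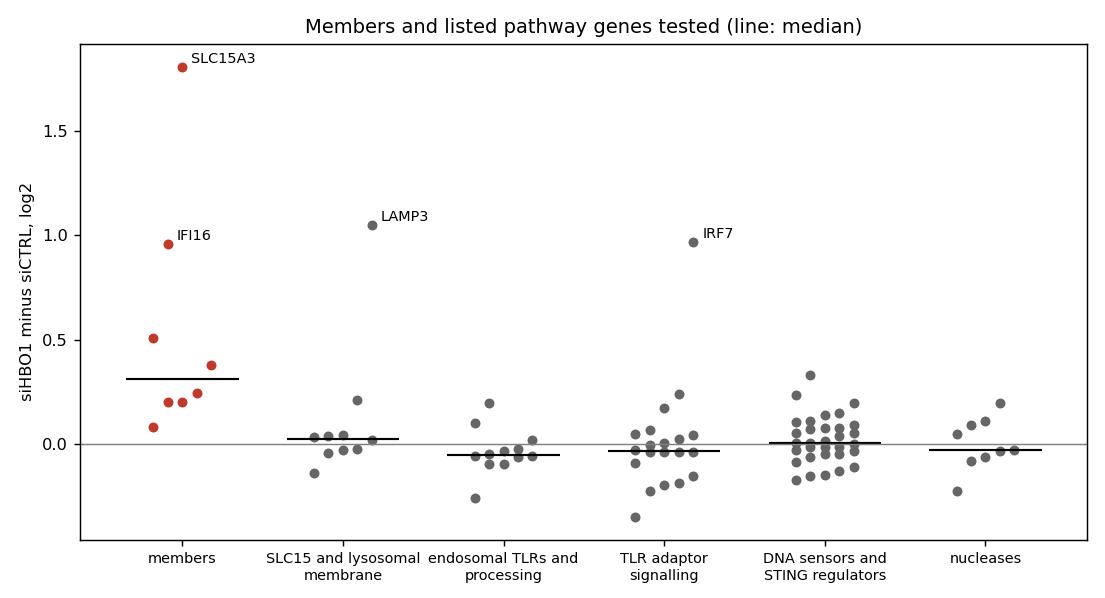
Difference in log2 level, siHBO1 minus siCTRL (y axis), for the 8 members compared and for the tested genes of the 5 pathway lists (x axis), 1 point a gene, with the median as a line. SLC15A3, LAMP3, IRF7 and IFI16 lie above 0.9, and the medians of the lists lie between -0.05 and 0.03.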

How the data were processed

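The authors deposited linear probe intensity values, with background and without normalization, and a detection p-value beside each. GenomeStudio and lumi are named, per the submitters' processing notes, without versions or roles, and the genome build is not given in the sources used here. Processed values that the authors deposited on a log2 or similar scale, which is not stated, served as an alternative. The number of arrays limits the precision.

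Intensities were corrected with nec of limma 3.58.1 (offset 16, background from the detection p-values), put on the log2 scale and quantile-normalized in R 4.3.3. Probes were named from the platform annotation, with symbols checked through RefSeq. Probes detected at p under 0.05 on at least 4 of 8 arrays were kept (21377), and a gene was its brightest kept probe. Groups were compared with lmFit and eBayes, 2-sided, siHBO1 minus siCTRL, with Benjamini-Hochberg adjustment over 17297 genes and a threshold of 0.05. The fit was tested on simulated data with independent noise on each array. That simulation held no effect shared by arrays with the same replicate number, so it cannot speak for such effects in these arrays.

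Members and gene lists were chosen with earlier results of these data known. The text names all members, KAT7, listed genes past the threshold in either fit, otherwise the 2 of a list with the smallest p, and the 5 profiles nearest to SLC15A3; TBK1, IKBKE, IRF3, LAMP1, LAMP2 and listed genes without a kept probe were named after their values were seen. Deviations from group means, correlated across genes between arrays of 1 number, gave 0.783, 0.324, 0.397 and 0.217 for replicates 1 to 4. As all exceed 0.1, pair differences are given, and the replicate number was a block in an alternative fit. The main fit took no pairing, and the SEs, intervals and p-values given without mention of the block come from it. Arrays of differing number reached 0.404, above the own-number value of replicates 2 to 4, so pairing is clear for replicate 1 only. The labels do not say what a number shares.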

Additional observations from a re-analysis of the deposited data

How the results depend on the processing

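The SLC15A3 difference kept its sign in all 19 alternatives that gave a value and moved by more than the replicate spread in 1, to 0.94 without background correction; with each array left out in turn it ran from 1.59 to 1.99, it was 1.71 without both replicate 1 arrays and 1.99 without both replicate 4 arrays, and with the replicate block it stayed at 1.81. Requiring detection on all 8 arrays removed SLC15A3 and IFI16 and gave no value for them. The 7 other members kept a positive sign in every alternative that measured them, but 6 of the 7 moved by over 1.5 times in at least 1. SLC15A4 went down to 0.01 without siHBO1 replicate 1, TICAM1 to 0.07 and MYD88 to 0.09 without siCTRL replicate 1, STING1 to 0.14 without siHBO1 replicate 3, and TLR3 to 0.22 and IFI16 to 0.44 without background correction. MYD88 was 0.32 without siHBO1 replicate 1, and UNC93B1 stayed between 0.33 and 0.44. The count of genes past the threshold was 6, and 16 without background correction, 11 with an offset of 50, 58 with the replicate block, 18 without both replicate 1 arrays, and 0 with median scaling, no normalization, the authors' values or without both replicate 4 arrays (limma, with 367, 169, 626 and 553 genes at an unadjusted p under 0.05); leaving out single arrays gave 0 to 5. The count of listed pathway genes past it was 1, and 2 with the replicate block, 0 with median scaling, no normalization, the authors' values, the mean of the kept probes or without both replicate 4 arrays, and 0 to 1 with single arrays left out. The cause of these shifts was not tested. No scaling moved the median of all genes by over 0.1. Dim signal left CGAS and TREX1 without a fold, and SLC15A3 and IFI16 were each undetected on 1 siCTRL array.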

Other observations

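Of the 82 listed pathway genes tested, ADAR, which edits double-stranded RNA, also had groups fully apart with siHBO1 higher. Its levels were 13.84 to 13.98 on siHBO1 arrays and 13.66 to 13.80 on siCTRL arrays, with 0.03 between the groups, and it did not pass over all genes. CNPY3, the Toll-like receptor cochaperone, had groups apart in the other direction, at 8.83 to 9.04 on siHBO1 arrays and 9.05 to 9.47 on siCTRL arrays, again without passing. With LAMP3 and IRF7 that made 3 of the 82 apart and higher (3.66%, against 1.35% of all genes tested) and 1 apart and lower (4.88% in either direction, against 2.82% of all genes). The lists were chosen with earlier results of these data known, so nothing is read from these shares. They were not compared by a test. The other kept probe of CNPY3 gave -0.09, against -0.26 for the brighter, and that of ADAR 0.30, against 0.20.

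CGAS levels were at background on all 8 arrays, at 5.53 to 5.61 on siHBO1 arrays and 5.69 to 5.77 on siCTRL arrays, ranges that do not overlap. Its detection p-values were higher on every siHBO1 array than on any siCTRL array. Values in that range have no fold. The share of undetected probes that lie apart was not counted, and the 2.82% given for all genes covers kept probes only. No change of CGAS is read from these values.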
